A study of Mus musculus with 44 samples.

Results

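Astrocytes are the glial cells that surround synapses and blood vessels. They take up glutamate, convert it to glutamine, buffer water and ions, couple to each other through gap junctions and supply neurons with lipid, and they are born mainly around and after birth, later than most cortical neurons. The 10 genes described here are standard markers of these cells: Gfap, Aqp4, Slc1a2, Slc1a3, Glul, Gja1, Aldoc, Apoe, S100b and Aldh1l1. They were chosen by symbol, and all 10 were found among the 17126 genes listed in the libraries used. The markers are not exclusive to astrocytes: microglia also make Apoe, and oligodendrocytes make some S100b and Glul.

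The measurements were mRNA levels (RNA-seq), ribosome-protected fragments (RPFs, the pieces of mRNA covered by translating ribosomes) and poly(A)-tail lengths. The cultured samples were cortical cells from newborn pups of both sexes, grown as neurons and given a pulse of AraC, which kills dividing cells. Of the 9 cultures, 6 were harvested after 14 days in vitro (DIV14): 1 unstimulated, 1 treated for 30 min with BDNF, 1 treated for 30 min with glutamate and glycine (glu/gly), and 3 transduced on DIV5 with lentivirus that made GFP alone, GFP with miR-1 or GFP with miR-155 from the neuronal synapsin promoter. The other 3 were DIV10 cultures, of which 1 was unstimulated and 2 were depolarized by KCl, 1 harvested at 10 min and 1 at 30 min. The hippocampus and the cortex of adult mice (1 male each) and the hippocampus of embryos at embryonic day 16 were sampled as tissue. The visual cortex came from 8 male mice of 6 to 7 weeks, all housed in darkness for 1 week, and 4 of them saw light for 1 h before they were killed. Outside visual cortex each sample type had a single library per assay, so differences among these samples have no replicate check. Their intervals are 95% Clopper-Pearson intervals that cover counting error only, and PCR copies were not removed.

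The genes are listed as coding transcripts, and their positions are given in GRCm38.p6. Gfap lies at chr11:102887336-102897200, Aldoc at chr11:78323073-78327781, Aqp4 at chr18:15389394-15410982, Slc1a2 at chr2:102658239-102790784 and Slc1a3 at chr15:8634124-8710807. Glul lies at chr1:153899929-153909723, Gja1 at chr10:56377300-56390419, S100b at chr10:76253836-76261319, Apoe at chr7:19696244-19701310 and Aldh1l1 at chr6:90550768-90599171. The counted coding sequence ran from 229 nt in S100b to 2659 nt in Aldh1l1, so short genes had fewer reads at a given level.

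Levels are given as CPM, counts of reads or tags per 1000000 on the listed genes of the same library, or as CPM per kb of the counted coding sequence where a sentence says so. The 12 RNA-seq libraries held 448022 to 7689624 reads on genes, the 10 RPF libraries 2812215 to 23212489 and the 20 tail libraries 86841 to 4812273 tags. RNA-seq used poly(A)-selected RNA in the hippocampi and RNA depleted of rRNA in the adult cortex and in 6 cultures that the sources do not name, so the cortex differed from the hippocampus in library type as well as in region. These are bulk samples, in which fewer astrocytes and less RNA per astrocyte cannot be told apart. Summed over the 10 genes, RNA-seq gave 5732 to 5931 CPM in the adult tissues, 2746 to 6270 in the 9 cultures and 998 in embryonic hippocampus. The labels name the cultures as cortical neurons, and 12 neuronal genes summed to 5043 to 6857 CPM in them. Markers of other non-neuronal cells were lower in the cultures than in the adult tissues. Oligodendrocyte genes summed to 48.5 to 123 against 1881 to 2324, and microglia genes to 26.8 to 120 against 528 to 537. The summed astrocyte markers thus overlapped between cultures and adult tissue in RNA-seq, but only through the DIV10 unstimulated culture at 6270 CPM. Apoe made up 3953 CPM of that sum, and the DIV14 cultures gave 2746 to 5006. In the other assays the sums did not overlap. They were 3852 to 7902 CPM in the cultures and 9178 to 11207 in the adult tissues in RPFs. In tail tags they were 1874 to 3942 CPM in the cultures and 7426 in adult cortex, all by TAIL-seq. Adult hippocampus, at 4160, was measured by another tail assay, PAL-seq, so its distance from the cultures also crosses assays.

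**Figure D1:**
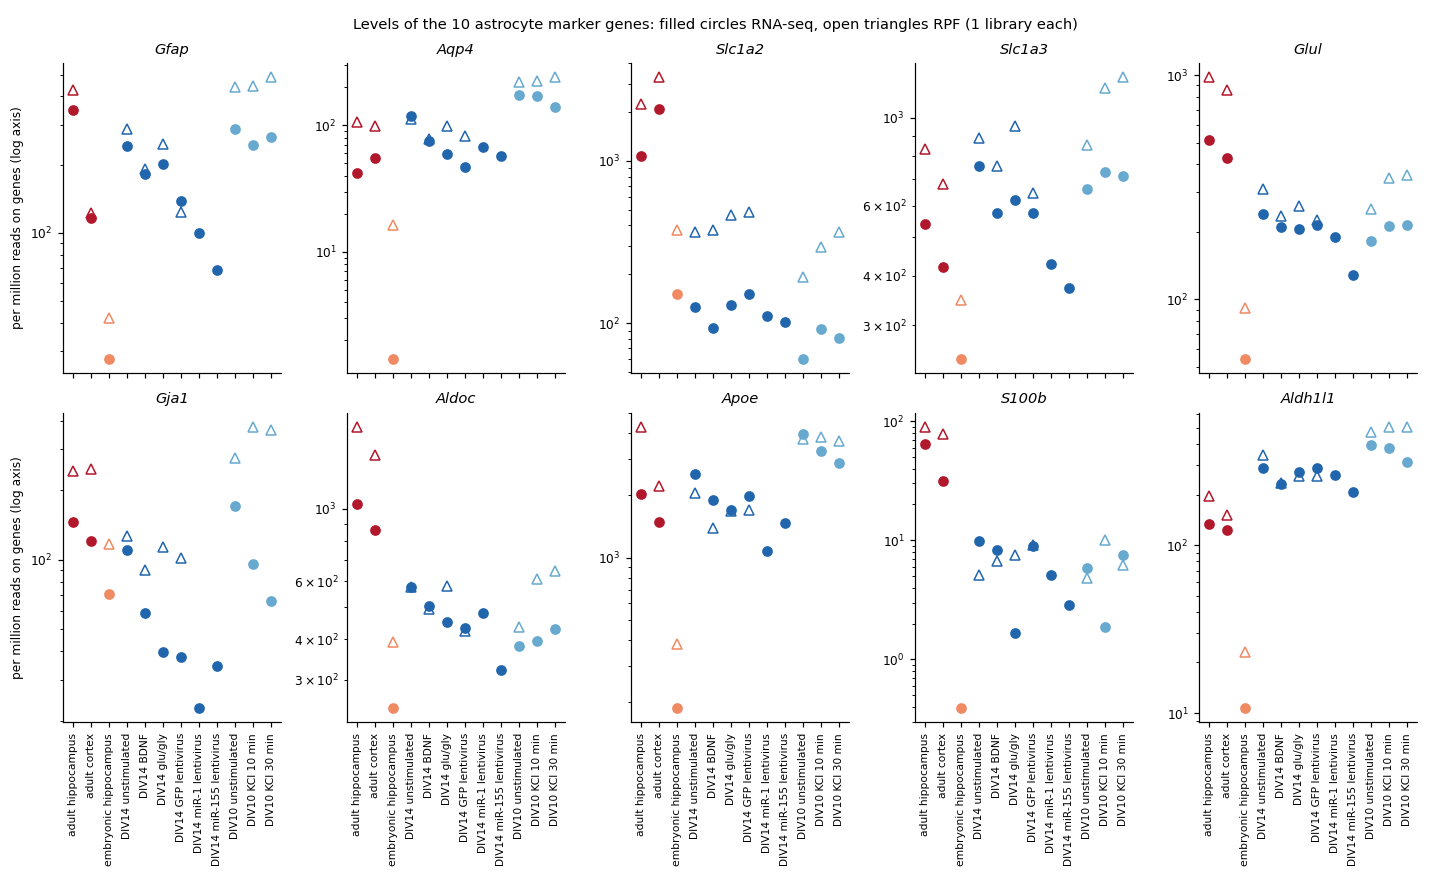
Levels of the 10 astrocyte marker genes in each RNA-seq and RPF library, in CPM on a log axis. Points are single libraries, with the adult tissues, the embryonic hippocampus and the cultures drawn apart. Slc1a2 lies far above all cultures in the adult tissues (1073 and 2082 against at most 152 in RNA-seq), and S100b in embryonic hippocampus has no RPF point because its count was 0.

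Apoe, the main lipid carrier of the brain, was the most abundant of the 10 mRNAs per kb in 11 of 12 RNA-seq libraries. Its RNA-seq level was 2296 CPM per kb in adult hippocampus, 1683 in adult cortex and 1218 to 4461 in the cultures. In embryonic hippocampus Aldoc, the brain form of the glycolytic enzyme aldolase, was first at 236 CPM per kb and Apoe second at 212. The second place differed among the tissues. In adult hippocampus it was held by Aldoc at 997 CPM per kb, and in adult cortex by Slc1a2, the glutamate transporter GLT-1, at 1247. The lowest per-kb levels in adult tissue belonged to Aqp4, the water channel of astrocyte endfeet, and Aldh1l1, an enzyme of folate metabolism. In adult hippocampus these were 45.3 and 50.1 CPM per kb, from 304 and 969 reads. In the DIV14 unstimulated culture S100b, a calcium-binding protein gene with a short coding sequence, was last at 42.9 CPM per kb, on only 5 reads.

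The first comparison asked how the markers differed between adult and embryonic hippocampus. All 10 mRNAs were more than 2-fold higher in the adult in RNA-seq and in RPFs. Of all genes compared, 23.2% were 2-fold higher and 27.0% lower in RNA-seq, and 30.8% were higher and 33.4% lower in RPFs. The median log2 fold of the markers was 3.34 in RNA-seq, beside -0.22 over all 13313 genes. With the authors' RPM, which divide by a larger total, 8 of 10 stayed past 2-fold, with 19.2% of all genes higher and 35.5% lower.

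The markers differed greatly in how far they rose from embryo to adult. S100b had 3 reads in embryonic hippocampus and 471 in the adult, a 166-fold difference with an interval of 56.4 to 807. Its RPF count was 0 in the embryo and 1952 in the adult, at least 697-fold when the 0 is set to 3 counts. Aqp4 went from 1.43 to 41.8 CPM, 29.2-fold (16.1 to 59.1) on 11 embryonic reads, but RPFs differed by only 6.47-fold (5.80 to 7.23). The embryonic RNA-seq library thus held few reads of either gene.

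A middle group rose 4.22- to 12.5-fold in RNA-seq. Gfap, the intermediate filament of astrocytes, was 27.8 CPM in the embryo and 349 in the adult, 12.5-fold (10.9 to 14.5). Aldh1l1 also differed 12.5-fold (9.96 to 15.8), from 10.7 to 133 CPM. Apoe rose from 187 to 2034 CPM, 10.9-fold (10.3 to 11.5). Glul, which makes glutamine from glutamate, rose from 54.4 to 512, 9.43-fold (8.52 to 10.5). Slc1a2 rose from 152 to 1073, 7.04-fold (6.62 to 7.50), and Aldoc from 246 to 1038, 4.22-fold (4.01 to 4.44).

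Slc1a3 and Gja1 differed least. Slc1a3, the glutamate transporter GLAST, which radial glia also make, was already 247 CPM in the embryo and 539 in the adult, 2.18-fold (2.07 to 2.31). Gja1, the gap-junction protein connexin 43, was 70.9 in the embryo and 146 in the adult, 2.05-fold (1.85 to 2.28). These are the genes that fell under 2-fold with the authors' RPM. The tail tags gave a different result for Slc1a3, 0.483-fold (0.243 to 0.976), on 21 adult and 17 embryonic tags. By tags 7 of 9 markers were more than 2-fold higher, beside 23.8% of all genes, and 1 was lower, beside 16.1%.

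Other lists moved in different directions between the same samples. Of 30 further astrocyte genes, 26 were 2-fold higher and 2 lower in the adult by RNA-seq, with a median log2 fold of 2.46. Among them, Sparcl1, a secreted matrix protein, differed by 4.17 on the log2 scale, and Clu, the secreted chaperone clusterin, by 2.73. Of 10 genes of radial glia and immature astrocytes, 0 were higher and 7 lower, with a median of -3.59. Nes, the filament protein nestin, was lower by 6.54 and Vim, vimentin, by 5.16 on the log2 scale. Markers of cell types other than astrocytes differed as well: 9 of 9 oligodendrocyte genes (median log2 fold 6.81) and 10 of 10 microglia genes (2.26) were higher. Of 12 neuronal genes, 8 were higher and 3 lower (median 2.97), and of 5 genes of endothelium and choroid plexus, 1 was higher and 4 were lower (median -1.39). Their part in the astrocyte result was not tested.

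The next question was how closely the cultures matched adult tissue. For each gene, both adult tissues were set against all 9 cultures in RNA-seq, and against the 7 cultures that had RPF libraries. Slc1a2, Glul, Aldoc and S100b were higher in both adult tissues than in any culture, in RNA-seq and in RPFs. That is 4 of 10 markers, beside 15.1% of all genes in RNA-seq and 16.6% in RPFs. Aldh1l1 was lower in both adult tissues than in any culture, beside 22.5% and 19.7% of all genes. The other 5 markers overlapped between tissue and culture. With the authors' RPM the same 4 genes were above, and Aldh1l1 overlapped in RNA-seq, where 23.4% of genes were above and 6.29% below.

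Slc1a2 had the widest gap in RNA-seq, and S100b in RPFs. Slc1a2 was 1073 CPM in adult hippocampus and 2082 in adult cortex by RNA-seq, whereas the cultures ranged from 60.4 to 152, with a median of 102. Its lowest adult level was 7.07 times its highest culture level in RNA-seq and 4.69 times in RPFs. The embryonic hippocampus, at 152 CPM, lay at the top of the culture range.

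S100b was 31.6 and 64.7 CPM in adult cortex and hippocampus and 1.66 to 9.83 in the cultures, where it had 1 to 7 reads per library. The gap was 3.21-fold in RNA-seq and 7.77-fold in RPFs, which gave it 4.85 to 9.97 CPM in the cultures and 77.5 and 90.1 in the tissues. Glul was 429 and 512 in the tissues and 129 to 240 in the cultures, a gap of 1.79-fold in RNA-seq and 2.38-fold in RPFs. Aldoc was 864 and 1038 in the tissues and 322 to 578 in the cultures, a gap of 1.50-fold in RNA-seq and 2.26-fold in RPFs. For these genes the separation was narrower than for Slc1a2 in RNA-seq.

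Aldh1l1 went the other way. It was 123 and 133 CPM in adult cortex and hippocampus and 208 to 393 in the cultures, a gap of 1.57-fold in RNA-seq and 1.20-fold in RPFs. In RNA-seq the culture ranges of Apoe, Slc1a3 and Gja1 held both adult levels. Those of Gfap and Aqp4 held the level of adult cortex only. Apoe ranged from 1079 to 3953 CPM in the cultures against 1491 and 2034 in the tissues. Gfap ranged from 68.7 to 287 in the cultures against 116 in cortex and 349 in hippocampus. Aqp4 was 46.9 to 175 in the cultures, Slc1a3 372 to 757 and Gja1 22.7 to 171, beside 41.8 to 55.6, 420 to 539 and 120 to 146 in the adult tissues.

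The glutamate transporters Slc1a2 and Slc1a3 clear the same transmitter, and their proportion was examined after their levels had been seen. Per kb of coding sequence in RNA-seq, adult cortex had 4.70 Slc1a2 mRNAs for each Slc1a3 mRNA (4.33 to 5.10) and adult hippocampus 1.89 (1.82 to 1.96). Embryonic hippocampus had 0.585 (0.544 to 0.630). The DIV14 unstimulated culture had 0.158 (0.119 to 0.206) and the DIV10 unstimulated culture 0.0867 (0.0672 to 0.110), the lowest value. The remaining cultures lay between 0.108 and 0.259. In RNA-seq Slc1a2 was thus the major transporter mRNA of the pair in adult tissue and the minor one in embryo and culture. In RPFs the ratio was 4.58 in cortex, 2.57 in adult hippocampus, 1.01 in embryo, 0.392 at DIV14 and 0.214 at DIV10, the same order, with the embryonic ratio near 1. Tail tags, which are not divided by length, gave 16.1 in adult cortex and 10.0 in adult hippocampus. They gave 0.402 to 0.904 in the 6 cultures without virus, but 1.10 (0.805 to 1.50) with GFP, 1.71 (1.21 to 2.43) with miR-1 and 1.52 (1.07 to 2.17) with miR-155. Embryonic hippocampus gave 0.706 (0.308 to 1.57) by tags, on 12 and 17 tags. In every sample type the tag ratio was above the RNA-seq ratio, as at 0.634 against 0.158 in the DIV14 unstimulated culture. A tag ratio of 1 is thus not the same mark as 1 per kb. The tag ratios of the 3 lentiviral cultures therefore do not show which transporter mRNA was the minor one.

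**Figure D2:**
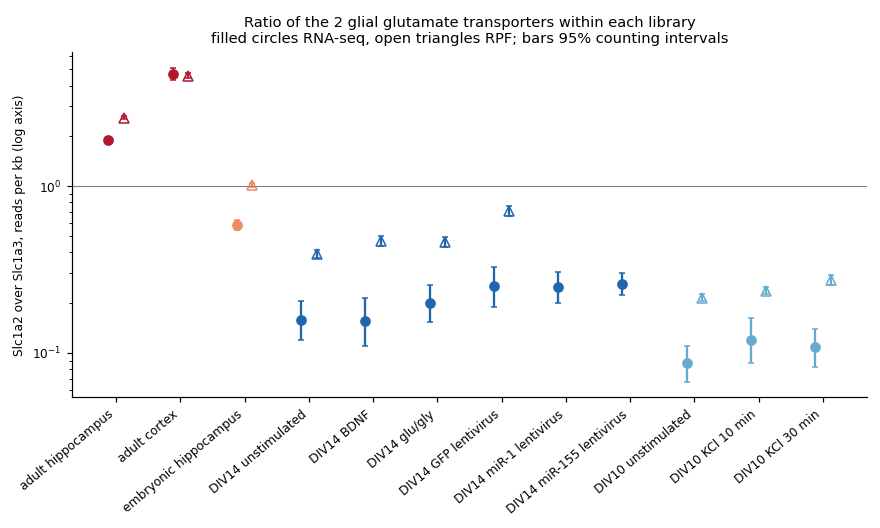
Ratio of Slc1a2 to Slc1a3 per kb of counted coding sequence in each sample, for RNA-seq and RPFs, on a log axis with 95% counting intervals. The adult tissues lie above 1, and all cultures lie below 1 in these assays, at 0.0867 to 0.259 in RNA-seq.

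Adult cortex was also compared directly with the DIV14 unstimulated culture, which is made from the same brain region. In RNA-seq, Slc1a2 was 16.5-fold higher in the cortex (12.9 to 21.5) and S100b 3.21-fold higher (1.30 to 10.3). Gfap (0.479-fold), Aqp4 (0.471) and Aldh1l1 (0.430) were lower. Within 2-fold lay Slc1a3 (0.555), Apoe (0.587), Gja1 (1.09), Aldoc (1.50) and Glul (1.79). These 2 higher and 3 lower markers compare with 15.7% and 19.4% of all genes. The split of calls depended on scaling: with a median of ratios, 23.8% of genes were higher and 9.44% lower, and 3 markers were higher and 0 lower, and with the authors' RPM the values were 19.0% and 14.6%, with 3 and 1 markers. Other scalings thus moved Gfap, Aqp4 and Aldh1l1 across the 2-fold limit. All 3 were also below 1 in RPFs (0.427, 0.871 and 0.441) and in tags (0.652, 0.803 and 0.554), although the tag interval of Aqp4 held 1 (0.592 to 1.08).

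RPFs and tags gave a larger share of higher markers. In RPFs, 4 were higher and 2 lower, beside 13.6% and 12.3% of genes. Slc1a2 was 8.96-fold higher (8.51 to 9.43), S100b 15.3-fold (9.99 to 24.6), Glul 2.76-fold (2.60 to 2.92) and Aldoc 2.52-fold (2.42 to 2.64), and Gfap and Aldh1l1 were at 0.427 and 0.441. By TAIL-seq tags 6 were higher and 0 lower, beside 12.3% of genes in each direction. Apoe was 0.587-fold by RNA-seq (0.549 to 0.628), 1.07-fold by RPFs (1.04 to 1.10) and 2.36-fold by tags (2.16 to 2.57). The assays thus disagreed on Apoe by more than counting error.

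Genes of immature and reactive astrocytes were mostly lower in cortex than in culture. Of 9 radial glia and immature astrocyte genes compared in RNA-seq, 0 were higher and 6 lower in the cortex, with Vim at -5.84, Fabp7, a fatty-acid binding protein, at -4.54 and Ptprz1, a receptor phosphatase, at 0.19 on the log2 scale. In RPFs 1 of 10 was higher and 5 were lower. Of 6 reactive astrocyte genes compared, 0 were higher and 5 lower, with Lcn2, the secreted protein lipocalin 2, at -6.14 and Osmr, a cytokine receptor, at -4.86. Of 30 further astrocyte genes, 10 were higher and 6 lower. Oligodendrocyte genes (9 of 9 higher) and microglia genes (8 of 9 higher) again moved with the comparison, and their part in it was not tested.

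Between the adult tissues, Gfap stood out. It was 116 CPM in cortex and 349 in hippocampus by RNA-seq, 0.332-fold (0.286 to 0.384), and 0.286-fold by RPFs (0.267 to 0.306). S100b was 0.488-fold in RNA-seq (0.361 to 0.648) but 0.860-fold in RPFs (0.782 to 0.944). Slc1a2 was 1.94-fold higher in cortex by RNA-seq (1.86 to 2.02) and 1.46-fold by RPFs (1.44 to 1.48), short of the 2-fold limit. The remaining RNA-seq folds were 0.733 for Apoe, 0.780 for Slc1a3, 0.824 for Gja1, 0.832 for Aldoc, 0.837 for Glul, 0.928 for Aldh1l1 and 1.33 for Aqp4. In all, 0 markers were 2-fold higher and 2 lower in RNA-seq, beside 10.3% and 9.91% of genes, and 0 and 1 in RPFs, beside 22.8% and 11.8%. With the authors' RPM, 3.45% of genes were higher and 29.3% lower in RNA-seq. Region and library type cannot be told apart here.

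Between DIV10 and DIV14, the unstimulated cultures differed modestly. Slc1a2 rose from 60.4 to 126 CPM in RNA-seq, 2.08-fold (1.46 to 2.96), and 1.90-fold in RPFs (1.78 to 2.04). It was the only marker past 2-fold in RNA-seq, of 9 compared, beside 2.95% of genes higher and 8.92% lower (4.66% and 6.60% with the authors' RPM). Apoe was lower at DIV14 in every assay: 3953 against 2539 CPM in RNA-seq, 0.642-fold (0.604 to 0.683), 0.554-fold in RPFs and 0.408-fold in tags. Gja1 was 0.461-fold in RPFs (0.420 to 0.506), the only marker past 2-fold there, beside 4.47% of genes higher and 10.3% lower. By tags 1 marker was higher and 2 were lower, beside 6.06% and 8.01% of genes. With the authors' RPM 7.34% of genes were higher and 6.88% lower in RPFs, Gja1 was no longer past 2-fold, and Slc1a2 was 2-fold higher instead (248 against 112 RPM). The other RNA-seq folds were 0.643 for Gja1, 0.672 for Aqp4, 0.730 for Aldh1l1, 0.842 for Gfap, 1.15 for Slc1a3, 1.32 for Glul and 1.51 for Aldoc. Per the study's methods, 6 culture samples were made in 2 batches of 3, without saying which, so age and batch cannot be told apart.

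Stimulation left most markers within 2-fold. After BDNF, 0 of 9 were past 2-fold in RNA-seq, beside 2.52% of genes higher and 4.53% lower. All 9 were below 1, and beside a median log2 fold of -0.011 for all genes theirs was -0.41. Their folds were 0.530 for Gja1, 0.637 for Aqp4, 0.746 for Slc1a2, 0.750 for Gfap, 0.751 for Apoe, 0.761 for Slc1a3, 0.807 for Aldh1l1, 0.873 for Aldoc and 0.878 for Glul. After glu/gly, 1 of 9 was lower, beside 4.38% of genes, and 0 were higher, beside 4.35%. The 8 others ran from 0.507 for Aqp4 through 0.667 for Apoe, 0.780 for Aldoc, 0.819 for Slc1a3, 0.832 for Gfap, 0.860 for Glul and 0.950 for Aldh1l1 to 1.03 for Slc1a2. S100b, with 1 to 7 reads in each culture, was not compared. Other lists differed among the same RNA-seq libraries (unstimulated, BDNF and glu/gly). The further astrocyte genes summed to 6693, 5030 and 5125 CPM, and radial glia and immature astrocyte genes to 2765, 1768 and 2005. Neuronal genes summed to 5389, 5895 and 5935. The part of these lists in the marker values was not tested. With 10 min of KCl, 0 of 9 were past 2-fold in RNA-seq, beside 1.33% higher and 3.56% lower, and at 30 min 1 was lower and 0 higher, beside 10.3% and 2.78% of genes. Apart from Gja1, the folds at 10 and 30 min were 0.832 and 0.723 for Apoe, 0.846 and 0.919 for Gfap, 0.959 and 0.796 for Aldh1l1, 0.977 and 0.802 for Aqp4, 1.04 and 1.12 for Aldoc, 1.10 and 1.08 for Slc1a3, 1.17 and 1.18 for Glul, and 1.53 and 1.34 for Slc1a2. In RPFs, 1 marker was past 2-fold, S100b with 10 min of KCl at 2.05-fold (1.36 to 3.11), on 55 and 46 reads, beside 1.61% of genes higher and 7.04% lower. All 10 markers were above unstimulated in RPFs at 10 min of KCl, with a median log2 fold of 0.46 beside -0.060 for all genes. At 30 min 9 of 10 were above, with 0.38 beside -0.036. After BDNF 8 of 10 were below in RPFs, with a median of -0.44 beside -0.059 for all genes. After glu/gly 6 of 10 were below, with -0.19 beside -0.070. No marker was past 2-fold in RPFs with BDNF (1.17% of genes higher and 4.13% lower), with glu/gly (1.04% and 4.04%) or with 30 min of KCl (1.72% and 5.96%). By tags 0 of 10 markers were past 2-fold in each of the 4 stimulations. Beside them, the shares of genes higher and lower by tags were 1.76% and 3.46% with BDNF, 1.73% and 3.57% with glu/gly, 3.11% and 3.55% with 10 min of KCl, and 3.82% and 3.51% with 30 min. The split of all genes moved with scaling: with the authors' RPM, 0.743% of genes were higher and 25.4% lower in RNA-seq with 30 min of KCl, 2.55% and 2.13% with 10 min, and 5.56% and 2.99% with glu/gly. In RPFs it gave 0.650% higher and 6.29% lower after glu/gly.

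The marker behind both lower calls was Gja1. In RNA-seq it was 171 CPM in the DIV10 unstimulated culture, 96.0 at 10 min of KCl and 66.0 at 30 min. The fold was 0.561 (0.404 to 0.766) at 10 min and 0.385 (0.279 to 0.524) at 30 min. Its RPFs were higher than unstimulated at both times, at 275, 377 and 364 CPM. Its TAIL-seq tags were 197, 183 and 180. At DIV14 it was 110 CPM unstimulated, 58.4 after BDNF and 39.9 after glu/gly in RNA-seq (0.362-fold, 0.215 to 0.594, on 24 and 56 reads), whereas RPFs were 127, 90.1 and 113 and tags 96.9, 66.2 and 80.0. The decrease of Gja1 past 2-fold was thus present in RNA-seq and absent from both other assays of the same cultures.

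The culture transduced with the GFP lentivirus had lower Aqp4 (46.9 against 118 CPM, 0.397-fold, 0.230 to 0.663) and Gja1 (37.9 against 110, 0.345-fold, 0.188 to 0.602) in RNA-seq. These were 2 of 9 markers, beside 5.74% of genes lower and 2.77% higher (9.94% and 1.63% with the authors' RPM, and 3 markers). The folds of the other markers were 0.572 for Gfap, 0.749 for Aldoc, 0.758 for Slc1a3, 0.785 for Apoe, 0.894 for Glul, 1.00 for Aldh1l1 and 1.21 for Slc1a2. Other lists differed between the same cultures. Genes of endothelium and choroid plexus summed to 64.9 CPM in the untransduced culture and 2.23 with GFP, and to 2.23 to 6.19 in the 3 lentiviral cultures against 41.6 to 64.9 in the other DIV14 cultures. Radial glia and immature astrocyte genes summed to 2765 and 1933, and reactive astrocyte genes to 314 and 179. Virus and culture preparation cannot be told apart, and the part of these lists in the marker values was not tested. In RPFs the call was Gfap instead, 123 against 287 CPM, 0.429-fold (0.381 to 0.483), beside 6.12% of genes lower and 1.35% higher. By tags 0 were higher and 1 was lower, beside 2.78% and 5.08%. Relative to GFP, 0 of 9 markers were past 2-fold with miR-1, beside 3.86% lower and 3.69% higher (1.88% and 7.99% with the authors' RPM). The folds of 8 of these ran from 0.599 (Gja1) through 0.724 (Gfap), 0.735 (Slc1a2), 0.747 (Slc1a3), 0.882 (Glul), 0.904 (Aldh1l1) and 1.11 (Aldoc) to 1.45 (Aqp4). Apoe was 0.541-fold (0.495 to 0.592), from 1993 to 1079 CPM, and 0.420-fold (0.362 to 0.485) in tags, where it was the 1 marker past 2-fold, beside 4.33% of genes higher and 5.91% lower. With miR-155, Gfap was 0.496-fold (0.366 to 0.679), from 138 to 68.7 CPM, 1 of 9 beside 3.51% of genes lower and 2.69% higher, and by tags 0 of 9 were past 2-fold, beside 4.14% of genes higher and 4.84% lower. The other folds with miR-155 in RNA-seq were 0.603 for Glul, 0.649 for Slc1a3, 0.671 for Slc1a2, 0.724 for Aldh1l1, 0.740 for Apoe, 0.743 for Aldoc, 0.911 for Gja1 and 1.23 for Aqp4.

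A microRNA represses mRNAs that pair with its seed, so the markers were searched for matches to miR-155. The mature sequence, shown because its seed defines the search, is read 5′ to 3′ with bases 2 to 8 in capitals (RefSeq, GRCm38.p6, chr16:84714143-84714165, plus strand).
miR-155-5p: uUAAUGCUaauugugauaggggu
The complementary letters, AGCATTA on the mRNA strand, were present in the 3′ UTR of 1343 of 16859 transcripts (7.97%) and in 0 of the 10 markers. Over the 1018 genes with a match the median log2 fold of miR-155 over GFP was -0.21, beside -0.0050 for 9700 genes without. Of the markers, 8 of 9 were below GFP with miR-155, with a median of -0.47 beside -0.014 for all genes. With miR-1, 7 of 9 were below GFP, with a median of -0.42 beside 0.0030 for all genes. The cause of these differences was not tested. The search covered this 7-base match alone.

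Translational efficiency (TE) was taken as the log2 ratio of RPFs to RNA-seq, set to 0 at the median gene of each sample, for genes at or above an RNA-seq cutoff of 10 RPM. Across the 10 sample types with both assays, 85 marker values passed this cutoff and all 85 lay above the median of their sample, where 50% of genes do. These are repeated values of the same 10 genes in related samples, so they are not independent. The lowest was Apoe in the BDNF culture, at 0.057 and percentile 53.0. Its interval held 0 (-0.045 to 0.16), as did that of Gfap in the GFP culture (-0.023 to 0.75). The median percentile of the markers ran from 70.7 in the GFP culture to 87.9 after 10 min of KCl. S100b passed the cutoff only in adult hippocampus. In adult hippocampus all 10 passed, from percentile 69.7 (Gfap) to 97.6 (Aqp4). In each of these samples the marker mRNAs that could be measured had more RPFs per mRNA read than the median gene. At a stricter cutoff of 30 RPM, 61 of 62 values were above the median.

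**Figure D3:**
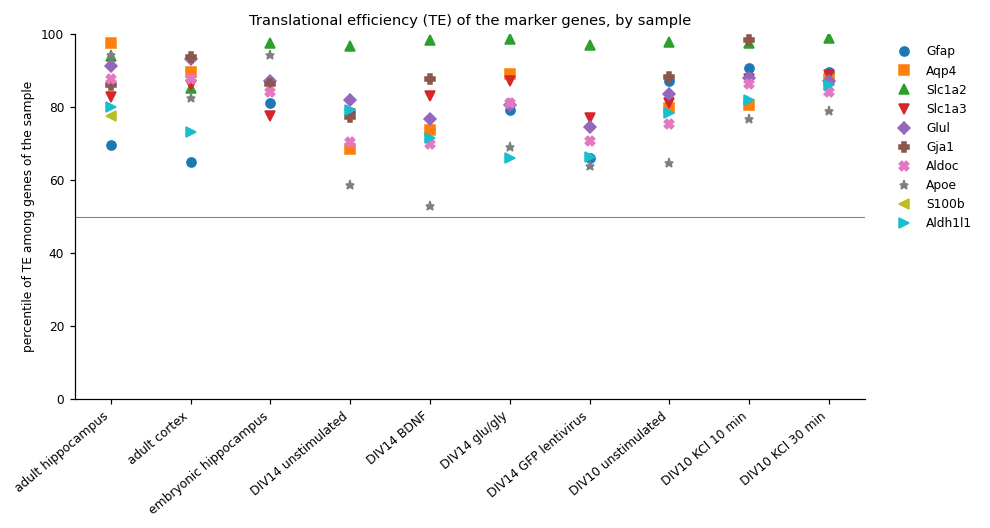
Percentile of each marker's TE among all genes of the same sample, for the 10 sample types with RNA-seq and RPFs. Every point lies above percentile 50, and Slc1a2 lies at percentile 96.9 or above in each culture.

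Slc1a2 combined low mRNA levels in culture with dense ribosome coverage. Its TE was 2.05 to 2.75 in the cultures, percentiles 96.9 to 99.1, 1.40 in embryonic hippocampus (percentile 97.7), 1.25 in adult hippocampus (percentile 94.1) and 0.94 in adult cortex (percentile 85.4). Between adult cortex and the DIV14 culture it differed by -1.11 (-1.47 to -0.75), the only 2-fold difference among 9 markers, beside 15.7% of genes lower and 2.72% higher. Without centring the difference was -0.94, within 2-fold. Apoe, in contrast, had a lower TE in the unstimulated cultures than in the tissues. Its TE was 1.26 in adult and 1.15 in embryonic hippocampus, 0.85 in adult cortex, 0.057 to 0.42 in the 4 DIV14 cultures, 0.32 in the unstimulated DIV10 culture, and 0.71 and 0.94 at 10 and 30 min of KCl, the last above adult cortex. The cortex exceeded the DIV14 culture by 0.64 (0.54 to 0.74).

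Between adult and embryonic hippocampus, 0 of 7 markers differed 2-fold in TE, beside 11.0% of genes higher and 11.1% lower. Their differences ran from -0.23 (Gfap) to 0.25 (Glul). The age difference of these 7 mRNAs was thus of similar size in RNA-seq and RPFs. Aqp4, S100b and Aldh1l1 did not pass the cutoff in the embryo, where Aqp4 had 11 RNA-seq reads and 380 RPFs.

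After KCl, TE of the markers was higher than in the unstimulated DIV10 culture once centred. At 10 min all 9 markers that could be compared were above 0, with a median of 0.34 beside 0.025 for all genes, and at 30 min all 8, with a median of 0.61 beside 0.058. Of all genes, 52.1% and 54.2% were above 0. The direction at 10 min depended on centring, because the uncentred median of all genes was -0.41. Uncentred, Gja1 at 0.94 and Aldoc at 0.092 were above 0 and the other 7 were below. At 30 min the uncentred values were 0.71 to 0.93, beside a median of 0.32 for all genes. Gja1 was the only 2-fold call, at 10 min. Its TE was 1.09 unstimulated and 2.46 after 10 min, a difference of 1.37 (0.92 to 1.82), and 1 of 4734 genes had a larger one. Beside it, 0.613% of genes were 2-fold higher. This follows from lower RNA-seq and higher RPF values, on 204 and 51 RNA-seq reads. At 30 min 0 markers differed 2-fold, beside 2.40% of genes higher and 3.90% lower, and Gja1 was under the cutoff. For BDNF, glu/gly, GFP lentivirus, DIV14 over DIV10 and adult cortex over adult hippocampus, 0 markers differed 2-fold in TE, beside 0.213% to 9.06% of genes higher and 0.156% to 4.43% lower.

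Poly(A) tails showed no common direction. With at least 50 tags per gene, 78 of 158 marker values over 20 libraries lay above the median gene of their library, beside 47.0% to 50% of genes. The markers differed among themselves instead. Gfap had long tails in cultures, 112 to 128 nt in the 6 cultures with enough tags, at percentiles 67.4 to 94.2. It also lay above the median in the 8 visual cortices, at percentiles 57.5 to 97.6, and had only 39 tags in adult cortex. Apoe had short ones, 88.5 to 97.7 nt in the 9 cultures, at percentiles 7.31 to 31.2, and 90.5 nt in adult cortex (percentile 20.7). Slc1a3 was at percentiles 10.9 to 58.8 in the cultures, with 88.4 to 105 nt. S100b was long in tissue, with 108 nt in adult cortex (percentile 78.5) and 98.4 to 122 nt in the 8 visual cortices (percentiles 96.0 to 99.6).

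Tail lengths in the hippocampi were taken as medians per gene, judged from the form of the values. They were therefore not put on the same scale as the means of the other samples. In adult hippocampus only 4 markers had 50 tags. Their median tails were 83.0 nt for Aldoc (percentile 98.2), 68.0 nt for Apoe (percentile 88.5), 56.0 nt for Slc1a2 (percentile 59.5) and 53.0 nt for Glul (percentile 46.4), beside 54.0 nt for the median gene. Apoe thus ranked high in adult hippocampus and low in the cultures and adult cortex, which were measured by TAIL-seq. It also ranked low in the 8 visual cortices (percentiles 14.8 to 43.5), which were measured by PAL-seq like the hippocampus, though as means. In embryonic hippocampus no marker had 50 tags, and Aldoc led with 27.

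Differences in tail length were compared among samples measured alike. From the DIV14 culture to adult cortex, the median difference over all genes was -12.4 nt and over the 7 markers compared -7.09 nt, with 1 of 7 longer (Slc1a3, by 0.811 nt) beside 6.50% of genes. From DIV10 to DIV14, 8 of 9 markers were longer, by 5.25 nt at the median, beside 84.8% of genes and 6.93 nt. The exception was Apoe, 97.7 nt at DIV10 and 93.6 nt at DIV14. After 30 min of KCl Gja1 tails were 17.1 nt longer, 111 against 94.1 nt on 140 and 119 tags, and Aldh1l1 tails 19.8 nt longer on 52 and 55 tags, while the median gene was 2.22 nt longer. The quartiles of all genes were -1.71 and 6.44 nt, so both lay beyond the middle of the distribution. Unstimulated Aldh1l1 tails, at 86.2 nt, ranked low in their library (percentile 8.09). Aqp4 tails were 12.4 nt longer at 30 min, whereas those of Apoe, Slc1a2 and Gfap differed by -6.68, -4.58 and -2.57 nt. Over all 9 markers compared at 30 min the median was 3.83 nt, with 6 longer beside 64.9% of genes. At 10 min it was -1.13 nt beside -0.165 nt, with 4 of 9 longer beside 48.9%. After glu/gly it was -1.88 nt beside -4.68 nt, with 1 of 8 longer beside 22.6%, and with the GFP lentivirus -7.00 nt beside -8.45 nt, with 0 of 5 longer beside 9.64%. Although the markers split evenly with BDNF, the medians of the markers and of all genes had opposite signs in 3 comparisons. These were BDNF (0.987 nt beside -1.04 nt, 4 of 8 longer beside 43.3%), miR-1 over GFP (1.05 nt beside -2.52 nt, 4 of 5 longer beside 35.5%) and miR-155 over GFP (5.12 nt beside -0.860 nt, 4 of 5 longer beside 45.0%).

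**Figure D4:**
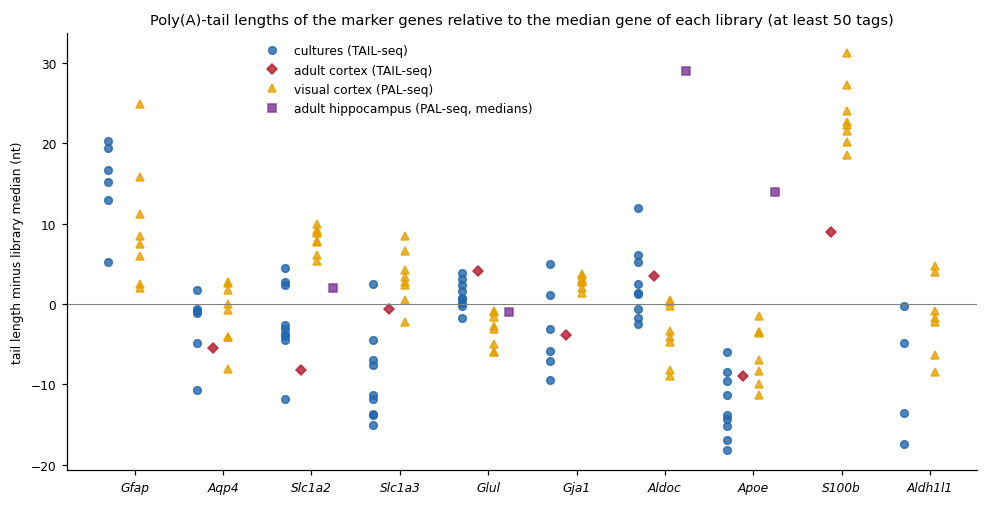
Poly(A)-tail length of each marker minus the median tail of all genes in the same library, in nt, for genes with at least 50 tags, with a point per library coloured by sample and assay. Points spread on both sides of 0, with Gfap above 0 and Apoe below 0 in the cultures. S100b lies far above 0 in the 8 visual cortices (18.5 to 31.2 nt above the median).

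Visual cortex gave the only replicated comparison, 4 mice in the dark and 4 after 1 h of light, by PAL-seq tags. It asked whether a brief visual stimulus changed the markers. By edgeR's quasi-likelihood test 128 of 9554 genes passed an adjusted p of 0.05 (1.34%), of which 116 rose and 12 fell. Of the 10 markers 0 passed, and 2 had an unadjusted p under 0.05, beside 9.45% of genes. DESeq2 called 132 genes and also 0 markers. The markers were 2 above and 8 below 0 on the log2 scale, with a median of -0.14 beside -0.0047 for all genes.

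Aldoc came nearest. It had 1266, 835, 880 and 929 CPM of tags in the dark mice and 828, 806, 776 and 789 in the light mice. Every dark value lay above every light value, by 835 against 828 at the closest. The log2 fold was -0.26 with SE 0.10, an unadjusted p of 0.020 and an adjusted p of 0.390. Without dark replicate 1, the mouse at 1266, the fold was -0.11, the smallest of the fits that left out 1 mouse. Glul, Slc1a2 and Slc1a3 also had their smallest folds without that mouse, at -0.058, -0.053 and -0.011. The other markers had theirs without other mice. Gfap had 74.5, 43.0, 95.2 and 74.1 in the dark and 60.0, 50.4, 39.9 and 47.5 in the light, where 1 dark mouse overlapped with the light mice. Its log2 fold was -0.46 (SE 0.20, adjusted p = 0.455 by edgeR). Without that dark mouse, replicate 2 and the most deeply sequenced, it was -0.69 with an adjusted p of 0.0279, and over all fits that left out 1 mouse it ranged from -0.69 to -0.28. The fall of Gfap was thus not called with all 8 mice.

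The remaining markers overlapped between light and dark. Slc1a2 averaged 2439 ± 161 CPM in the dark and 2227 ± 120 in the light (SD, n = 4 each), Glul 1701 ± 195 and 1551 ± 125, and Apoe 1798 ± 305 and 1838 ± 355. Gja1 averaged 366 ± 37.0 and 316 ± 31.5, and Aqp4 94.4 ± 7.07 and 76.4 ± 14.2. Their log2 folds had edgeR adjusted p-values from 0.553 (Aqp4) to 0.934 (Apoe). Slc1a3, S100b and Aldh1l1 averaged 207, 139 and 39.7 in the dark and 178, 129 and 42.5 in the light. Of 27 further astrocyte genes tested, 1 rose: Ppp1r3c, a regulator of glycogen synthesis, named here after its value was seen, by 0.92 on the log2 scale (adjusted p = 0.0029). The others gave a median of -0.14 with Ppp1r3c included, and 20 were below 0. The 9 oligodendrocyte genes had a median of -0.25 with 0 called, and their summed level was 1056 to 1933 CPM in the dark and 755 to 1380 in the light. Its part in the astrocyte values was not tested.

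**Figure D5:**
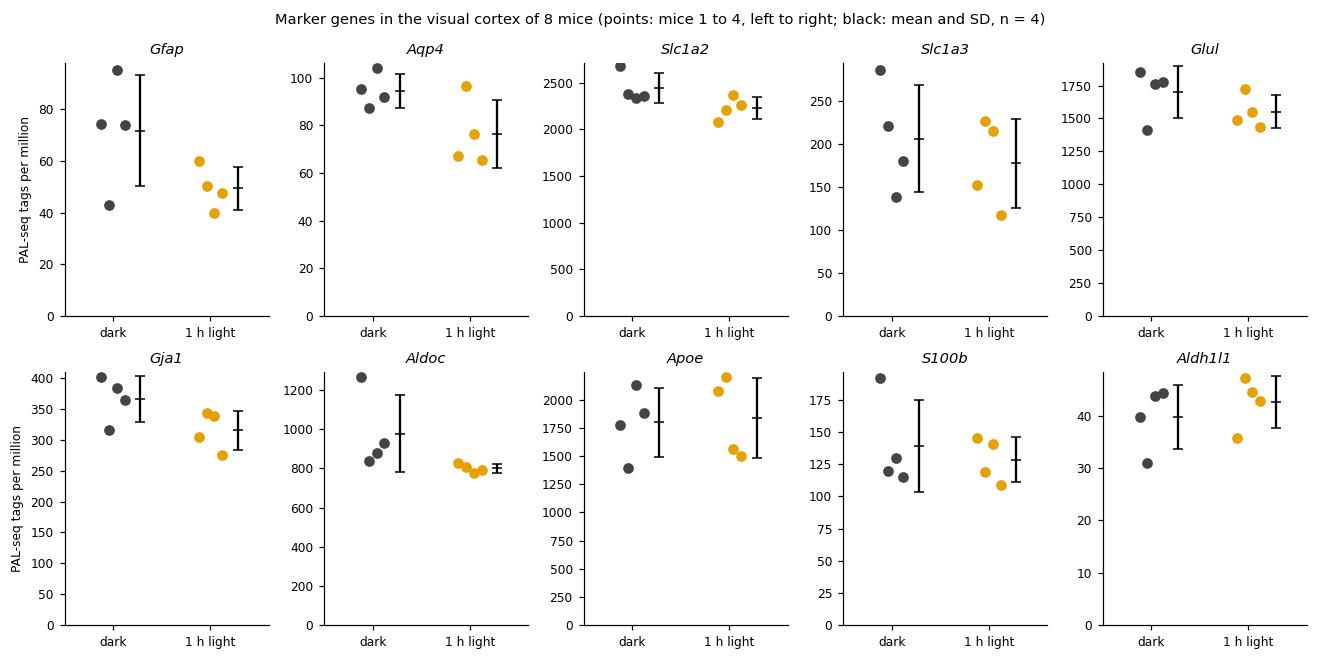
PAL-seq level in CPM for each marker in the 8 visual cortices, with points for single mice in the dark (4) and after 1 h of light (4) and bars at the group means with SD. For Aldoc no dark value falls below the light values, and for Gfap the dark replicate at 43.0 falls among the light ones.

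Tail lengths in visual cortex were tested with limma. Of 4321 genes with at least 50 tags in all 8 libraries, 10 passed, all with longer tails in the light (0.231%). Of the markers 9 could be tested, since Aldh1l1 had 44 tags in 1 mouse, and 0 passed. All 9 had longer mean tails in the light, with a median difference of 5.08 nt, but so did the median gene, by 3.75 nt. Gfap differed most, 89.8 ± 9.01 nt in the dark and 104 ± 14.5 nt in the light (SD, n = 4 each), a difference of 14.3 nt with SE 6.68, unadjusted p = 0.033 and adjusted p = 0.999 by limma. S100b had 107 ± 9.47 nt and 114 ± 7.06 nt, and Apoe 79.6 ± 4.44 and 82.5 ± 4.17 nt. The median gene's tail ran from 77.5 to 92.4 nt among the dark mice and from 81.7 to 97.5 nt among the light mice.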

How the data were processed

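RNA-seq and RPF counts were deposited as whole reads per gene. The submitters' processing notes name STAR 2.4.2, bedtools and mm10. Per the paper's methods, which name no mapper for these assays, the authors counted reads on the coding sequence of 1 transcript per gene beyond its first 50 nt. The authors also deposited RPM values, whose totals also hold reads outside the listed genes, and log2 TE values. Both served as alternatives. For tails, the deposited files hold tag counts and tail lengths in nt per gene, which the authors measured with hidden Markov models of 5 states (TAIL-seq, cultures and adult cortex) or 3 states (PAL-seq, the other tissues).

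Of 44 samples, 42 were grouped by their labels. The 2 RPF libraries of the miR-1 and miR-155 cultures carry contradictory labels and were not used. The 10 genes and the comparison lists were chosen with earlier results of these data known. All markers compared are named for RNA-seq levels and the rest by counts, with at most 3 of the most abundant genes of each other list. Comparisons of 1 library with 1 took genes with at least 10 reads in either library, set counts under 3 to 3 and counted differences past 2-fold. Light and dark mice were compared with edgeR 4.0.16 (quasi-likelihood) on tag counts, with DESeq2 1.42.0 as an alternative, and with limma 3.58.1 on mean tail lengths, all with Benjamini-Hochberg adjustment (threshold 0.05). These steps were tested on simulated data. The labels do not state pooling, and each visual cortex sample was treated as 1 mouse. Replicate numbers of light and dark mice did not pair the samples. Alternatives were other scalings, cutoffs and tests, tags in place of reads, and leaving out each mouse. Figures used matplotlib 3.10.9 (Python 3.11.15), and tests ran in R 4.3.3.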

Additional observations from a re-analysis of the deposited data

Results flagged for a closer look

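Of 40 groups of 4 mice, 1 held a sample far from the others by Dixon's criterion, and chance marks about 1 in 20 groups. Slc1a2 in dark replicate 1 had 2679 CPM, whereas the other dark mice had 2339 to 2379.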

How the results depend on the processing

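In visual cortex the count of genes called for expression ranged from 100 to 150 when 1 mouse was left out, and a fit with the replicate block gave 113 and changed no call of a marker. The 10 genes called for tail length became 1 on the log2 scale, 1 with the replicate block and 3 with each mouse centred on its median (chosen after seeing the data). Leaving out 1 mouse gave 1 to 21: dark replicates 1, 2, 3 and 4 gave 19, 2, 1 and 1, and light replicates 2, 3 and 4 gave 1, 2 and 21. Gfap expression became a call without dark replicate 2 (adjusted p = 0.0279 by edgeR). Signs turned for Apoe expression without dark replicate 2 (-0.035) and light replicate 2 (-0.030; range -0.035 to 0.16), for S100b expression without dark replicate 1 (0.11; range -0.15 to 0.11), and for Aqp4 tails without light replicate 3 (-1.40 nt; range -1.40 to 6.22 nt). Centring turned the tails of Aqp4 (-1.32 nt), Gja1 (-0.180 nt), Aldoc (-0.400 nt) and Apoe (-1.03 nt). None of these markers was called in either form. In tags, Slc1a3 was lower in adult than embryonic hippocampus (-1.05 on the log2 scale). TE of Apoe after BDNF was -0.041 at 30 RPM.

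Counts of markers past 2-fold changed as follows, with the cause not tested. Tags in place of reads gave 3 for DIV14 over DIV10 (1 by reads), 0 for glu/gly (1), 0 for KCl at 30 min (1), 1 for GFP lentivirus (2), 1 for miR-1 (0) and 0 for miR-155 (1). The authors' RPM gave 2 for cortex over hippocampus in RPFs (1), 0 for KCl at 10 min in RPFs (1), 0 for miR-155 (1) and 0 below every culture in RNA-seq (1). A median of ratios gave 3 for cortex over DIV14 (5), 2 for cortex over hippocampus in RPFs (1) and 0 for miR-155 (1). Without centring, TE gave 0 for cortex over DIV14 (1) and 0 for KCl at 10 min (1). Without the hippocampi, 2 markers were below every culture in RPFs (1). The tag alternative for cortex over hippocampus was not run, because the tail assays differ. Depth was low for S100b, with 1 to 7 RNA-seq reads per culture, and 1 library per condition allows no test.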

Other observations

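Over the 12 RNA-seq libraries, 10 genes outside the markers followed the mean log2 level of the markers most closely, of 8805 compared. They were Cxcl14 (Pearson r = 0.952), Cst3 (0.950), Sfxn5 (0.947), Plaat3 (0.942), Gpld1 (0.941), Nwd1 (0.938), Timp4 (0.934), Acot11 (0.933), Plekhb1 (0.931) and Hcn2 (0.931). Cst3 encodes the protease inhibitor cystatin C and ranged from 146 to 1112 CPM. Timp4 encodes an inhibitor of metalloproteases and ranged from 0.910 to 36.9. None was on a list used here. Among the markers themselves, r with their mean ran from 0.351 for Slc1a2 to 0.936 for Glul. The libraries share sample types and culture preparations, so these values describe the 12 libraries only.

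Aldoc and Aldoa, the brain and the widely expressed aldolase, changed their proportion between the hippocampi. Per kb, RNA-seq gave 2.13 Aldoc for each Aldoa in embryonic hippocampus (1.98 to 2.31) and 0.841 in the adult, with 0.980 in adult cortex, 0.764 in the DIV14 culture and 0.675 in the DIV10 culture. Aldoc rose in the adult hippocampus, and Aldoa rose by more, by 3.42 on the log2 scale. This ratio was chosen after its values were seen. Genes of endothelium and choroid plexus summed to 469 to 1392 CPM in the adult tissues, 662 in embryonic hippocampus and 2.23 to 65.9 in the cultures.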
